A study of Mus musculus with 6 samples.

Results

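The mitochondrial ribosomal proteins are the proteins of the ribosome inside mitochondria. They were taken here as all genes whose name is Mrpl or Mrps followed by a number, leaving out pseudogene names holding "-ps". The rule found 78 genes among the 49671 of the deposited tables, 49 with Mrpl names and 29 with Mrps names, and left out 5 pseudogenes. RNA was measured in CD3+ T cells enriched from the spleens of F1 female mice, with 3 unstimulated libraries collected on day 0 and 3 libraries after 48 h (day 2) on plate-bound anti-CD3 at 1 µg/ml with soluble anti-CD28 at 10 µg/ml. These antibodies engage the T cell receptor complex and the costimulatory receptor CD28. Both groups came from the same cross: the mothers were C57BL/6 (mus) with a heterozygous Xist deletion and the fathers M. m. castaneus (cast). The unstimulated cells were not cultured, so stimulation and time in culture cannot be told apart, and the labels name no mouse for any library.

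Mitochondria keep a small genome whose messages encode core subunits of the respiratory chain, and a dedicated ribosome translates them. The RNA of that ribosome is mitochondrially encoded, but all of its proteins are made from nuclear genes in the cytosol and imported. A part of these proteins descends from bacterial ribosomal proteins, and the rest is found only in mitochondrial ribosomes. T cells are known to enlarge and remodel their mitochondria when they leave quiescence.

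All 78 genes are annotated in GENCODE M21 (mm10) and all lie on autosomes, with 11 on chromosome 11, 8 on chromosome 17, 7 on chromosome 6 and 6 on chromosome 7. The genes share little position: 7 pairs of neighbours start within 1000000 bases of each other. The closest pair is Mrps11 (chr7:78783119-78792989, forward strand) and Mrpl46 (chr7:78775236-78783531, reverse strand), whose starts are 412 bases apart and whose exons overlap. Within the 1000 bases before its start, a protein-coding gene of the opposite strand begins and points away at 18 members (23.1%), against 11.2% of the 10551 protein-coding genes tested for expression. Pairs whose first bases overlap, such as Mrps11 and Mrpl46, are not in this count.

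Promoters of these genes often hold letters recognised by nuclear factors known for respiratory genes, so the windows that show this most plainly are printed here. RefSeq windows on GRCm38.p6, from 250 bases before to 50 after the start, were found for 69 of the 78 members (75 windows). They were searched on both strands for the NRF1 letters GCATGCGC, the ETS letters CCGGAAG (the family of GABP) and the YY1 letters AAGATGGCG. At least 1 of these 3 was present in 48.0% of the members' windows, in 12.1% of all 32851 windows and in 25.1% of the windows of genes tested for expression. Of the 6 members with at least 2 kinds, the 3 with a log2 difference of at least 1 after stimulation on the log2(RPKM + 1) scale are shown on the gene's own strand, with matches in capitals. Mrpl17, with NRF1 and ETS letters, lay just below at 0.91. Mrpl22 lines the exit tunnel for the growing peptide, and its window (chr11:58171414-58171663, forward strand) holds ETS and then NRF1 letters.
Mrpl22: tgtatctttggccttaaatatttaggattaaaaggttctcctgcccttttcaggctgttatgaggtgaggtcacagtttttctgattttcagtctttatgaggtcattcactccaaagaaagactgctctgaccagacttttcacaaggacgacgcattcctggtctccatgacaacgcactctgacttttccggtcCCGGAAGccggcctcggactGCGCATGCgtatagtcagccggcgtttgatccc
Mrps18b, 1 of 3 paralogs of the bacterial protein S18 family, holds NRF1 letters far before its start (chr17:35916441-35916690, reverse strand) and again after it beside ETS letters (chr17:35916391-35916420). The start here is that of RefSeq, and the GENCODE M21 gene starts further on, at base 35916389.
Mrps18b: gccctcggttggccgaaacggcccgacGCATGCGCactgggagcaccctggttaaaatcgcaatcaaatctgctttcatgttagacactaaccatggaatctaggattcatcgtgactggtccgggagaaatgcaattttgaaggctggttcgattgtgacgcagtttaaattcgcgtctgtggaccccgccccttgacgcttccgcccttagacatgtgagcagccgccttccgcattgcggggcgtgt
Mrps18b, after the RefSeq start: tgtcccgaGCATGCGCagtcgctCTTCCGG
Mrps27, a small-subunit protein with pentatricopeptide repeats, holds ETS letters before its start (chr13:99344536-99344785, forward strand) and YY1 letters after it (chr13:99344787-99344816).
Mrps27: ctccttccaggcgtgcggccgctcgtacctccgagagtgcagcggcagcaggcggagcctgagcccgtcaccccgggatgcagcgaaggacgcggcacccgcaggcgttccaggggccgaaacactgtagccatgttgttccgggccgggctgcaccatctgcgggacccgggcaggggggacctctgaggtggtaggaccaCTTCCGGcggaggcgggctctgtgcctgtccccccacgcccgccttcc
Mrps27, after the start: cttggtgcgctccAAGATGGCGgctcccat
A match of letters is a description and not a measured binding site.

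Motif by motif, the NRF1 letters were in 10.7% of the members' windows against 5.5% of those of tested genes and 2.7% of all windows. The ETS letters were in 34.7%, against 18.5% and 8.9%. The YY1 letters were in 10.7%, against 3.3% and 1.4%. The E-box CACGTG (9.3% against 10.2% and 7.2%), the CCAAT letters (40% against 37.7% and 37.4%) and the TATA letters TATAAA (6.7% against 7.1% and 13.6%) stood near the tested genes, and the GC box GGGCGG was in 52.0%, against 62.8% and 35.7%. Matches of different motifs share bases in 2 of the members' windows. The median log2 difference after stimulation was 0.75 for the 25 tested members with ETS letters and 0.92 for the 43 without. For NRF1 it was 0.98 with (8 members) and 0.85 without, and for YY1 1.12 with (8 members) and 0.88 without. Mrpl45 and Mrpl12, the members with the largest rises, held none of the 7 motifs, nor did Mrpl24, which fell. Mrpl33, which did not pass the test, held both NRF1 and ETS letters.

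Nearly the whole set was higher after stimulation. Expression of both alleles together was given as RPKM, read numbers scaled to gene length and library depth, on which genes can be compared for level. Of the 77 members tested, 73 were higher in the stimulated libraries (31.2% of the 13288 genes tested were called higher), 1 was lower (48.9% of all genes tested were called lower) and 3 did not pass the test (limma, Benjamini-Hochberg adjusted p under 0.05). The median log2 difference of the members was 0.88 on the log2(RPKM + 1) scale, with a range from -0.20 to 1.78, while the median of all genes tested was -0.24. Rises with a log2 difference of at least 1 on this scale were called for 25 members (12.4% of all genes tested). Falls of that size were called for 0 (24.4% of all genes tested). Under an unadjusted p of 0.05, and with edgeR or DESeq2 on summed allelic counts, such falls of members also numbered 0. A member at low RPKM can double in mean RPKM and stay below this threshold, such as Mrps10 (2.68-fold, log2 difference 0.88). All 3 stimulated libraries lay above all 3 unstimulated ones for 73 members (32.7% of all genes tested) and below them for 2 (50.7% of all genes tested). Called higher were 69 to 75 members in every alternative scaling, filter, tool or left-out library, and 64 of the 76 members tested under all 15 settings were called higher in each of them.

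**Figure D1:**
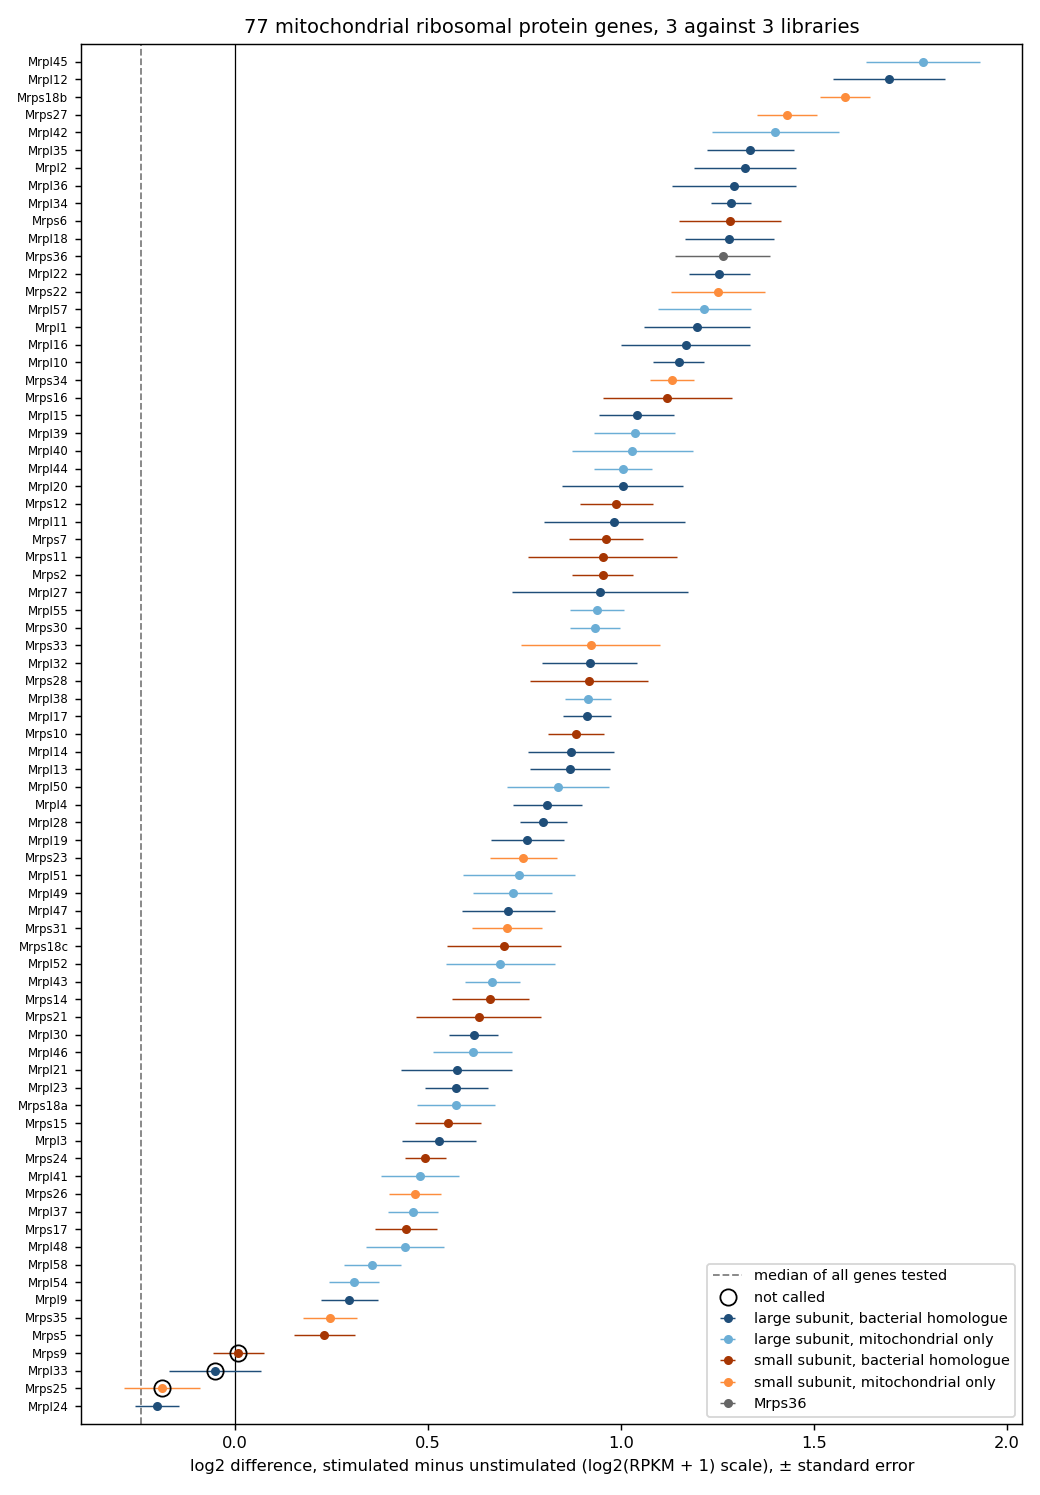
Log2 difference between stimulated and unstimulated libraries (x axis, log2(RPKM + 1) scale) with its standard error for the 77 tested members (y axis), coloured by subunit and ancestry. The points run from -0.20 to 1.78, and all but 3 (Mrpl24, Mrps25 and Mrpl33) lie to the right of 0; the dashed line is the median of all genes tested, -0.24, and black rings mark the 3 members not called.

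Summed over the 78 members, RPKM was 564, 584 and 685 before stimulation and 1216, 1198 and 1189 after it, a ratio of means of 1.97. The stimulated libraries lay close together, and replicate 3 stood above the other unstimulated libraries. That library held the highest value of its group for 60 of 77 members (77.9%, against 54.7% over all genes tested). The median coefficient of variation of the members was 13.7% in the unstimulated libraries and 5.21% in the stimulated ones. Without unstimulated replicate 3, 73 members were again called higher.

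Markers of other cell types moved with the groups as well. The 8 B cell markers summed to 122 to 238 RPKM in the unstimulated libraries and 10.8 to 22.6 in the stimulated ones, and the 6 NK cell markers to 244 to 343 and 10.2 to 15.1. The 8 myeloid markers summed to 1111 to 3301 RPKM before and 1.42 to 3.10 after, with S100a8 and S100a9 listed at 0 in stimulated replicate 1. For the 5 erythroid markers the sums were 77.2 to 1300.0 and 1.504 to 12.4. All markers of these 4 lists were called lower, and unstimulated replicate 3 held the highest sum of each list. The 12 T cell markers summed to 1195 to 1510 RPKM before and 1045 to 1107 after, with 7 called lower and 5 not called. That split depends on scaling, with 2 higher and 4 lower after median centring, 0 and 8 with quantile normalisation and 4 and 2 by edgeR on summed allelic counts. The part of this change in cell makeup in the members' rise was not tested, and in bulk RNA more cells of a type cannot be told apart from more RNA per cell.

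Both subunits and both ancestries rose. Of the 29 large-subunit proteins with a bacterial homologue, 27 were called higher and 1 lower, with a median log2 difference of 0.92. All 21 tested large-subunit proteins found only in mitochondria were called higher (median 0.74). In the small subunit, 15 of 16 proteins with a bacterial homologue (median 0.79) and 9 of 10 found only in mitochondria (median 0.83) were called higher. The mitochondria-only counts include Mrps18a and Mrps18b, although both belong to the bacterial S18 family. The ratio of summed RPKM between large-subunit and small-subunit members was 2.47, 2.45 and 2.48 before stimulation and 2.49, 2.53 and 2.49 after it. It thus stayed between 2.45 and 2.53 while the total rose. Ribosomal subunits with other names (Dap3, Ptcd3, Aurkaip1, Chchd1 and Gadd45gip1) are not in these sums, so the ratio is not that of the whole subunits. Mrps30 and Mrps18a, whose names carry the S of the small subunit, are counted with the large subunit, where their proteins sit. Mrps36, now known as a component of the ketoglutarate dehydrogenase complex, is a member by name, and rose from 5.82 ± 0.92 (SD, n = 3) to 15.3 ± 1.82 RPKM.

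**Figure D2:**
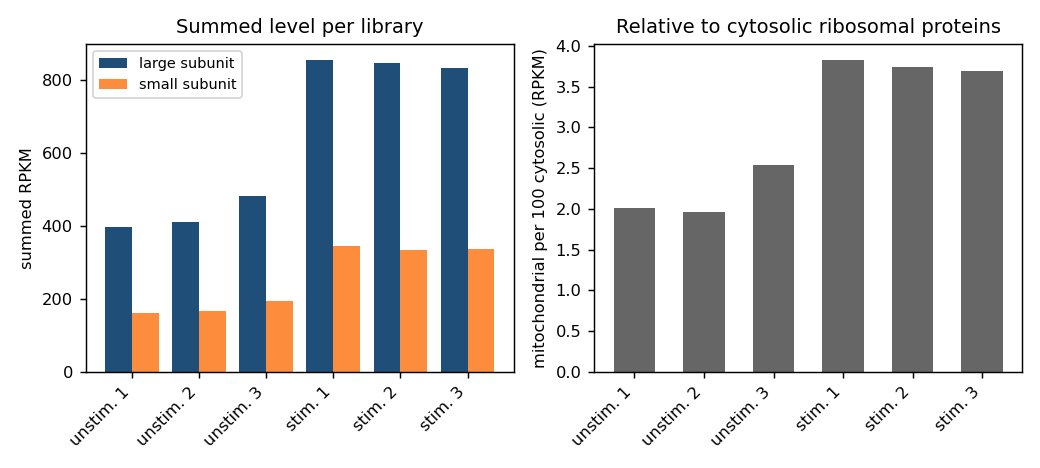
Left, summed RPKM (y axis) of large-subunit and small-subunit members in each of the 6 libraries (x axis); right, summed RPKM of the 78 members per 100 RPKM of cytosolic ribosomal protein genes. Each bar is 1 library: the right panel runs from 1.96 to 2.54 in the unstimulated libraries and from 3.69 to 3.83 in the stimulated ones.

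The levels of the members spanned a 26.0-fold range among the unstimulated means and 23.6-fold among the stimulated means, although the ribosome holds its proteins mostly in single copies. In GENCODE M21 the exon bases of the members run from 607 (Mrpl34) to 8631 (Mrps35). Mrps10, lowest before stimulation, has 8079, and Mrpl24, highest before it, has 2255. The part of gene length in this range was not tested. The quartiles of the means were 3.70, 6.94 and 10.1 RPKM before and 7.27, 12.8 and 20.8 RPKM after. An RPKM of at least 10 was reached by 20 members before and by 45 after. The order of the members was largely kept (Spearman rho 0.92 between the groups' means, across 77 genes, which share the same libraries). Between the level before stimulation and the log2 difference on the log2(RPKM + 1) scale, rho was 0.115. That scale understates changes of low members, and the level before stimulation enters both values. A rho of this size thus does not show that level and change are unrelated.

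Mrps16, a small-subunit protein with a bacterial homologue, had the highest mean level over the 6 libraries. It stood at 19.3, 23.8 and 32.0 RPKM in unstimulated cells and at 52.4, 54.0 and 57.2 RPKM in stimulated cells. The groups did not overlap, and the spread before stimulation was wide (log2 difference 1.12 ± 0.17 (SE), limma adjusted p = 0.000755). Mrpl12, the stalk protein on which translation factors dock, had 14.5, 13.7 and 20.3 RPKM before and 57.9, 52.9 and 50.5 RPKM after. It was the second of all members both in level and in rise (1.69 ± 0.15 (SE), limma adjusted p = 5.24e-05). Mrpl10, which holds the stalk to the large subunit, had 15.6, 15.3 and 17.5 RPKM before and 36.7, 38.2 and 36.1 RPKM after. Both stalk members thus stood among the 5 highest, with the foot of the stalk rising 2.29-fold and the stalk itself 3.33-fold. Their difference in rise was not tested.

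Mrpl34, a short large-subunit protein with a bacterial homologue, was tight in both groups, at 18.0, 17.6 and 18.8 RPKM before and 46.2, 44.2 and 46.3 RPKM after. Mrpl42, found only in mitochondrial ribosomes, had 12.8, 17.3 and 21.0 RPKM and then 44.7, 48.8 and 43.6 RPKM. Mrpl18, a large-subunit protein of bacterial descent, had 13.2, 12.6 and 17.2 RPKM and then 36.9, 36.6 and 34.3 RPKM. Each of these 3 rose between 2.51-fold and 2.69-fold in mean RPKM, with no overlap between the groups. Mrpl32, whose maturation by a mitochondrial protease is a known step of ribosome assembly, had 12.2, 15.2 and 17.4 RPKM before and 27.2, 30.1 and 29.2 RPKM after. Mrps30 had 13.7, 14.0 and 14.6 RPKM before and 29.9, 27.1 and 26.5 RPKM after. Mrpl28 had 13.5, 14.8 and 15.3 RPKM before and 26.1, 26.0 and 25.9 RPKM after. These 3 abundant large-subunit members rose 1.79-fold to 1.98-fold, and their groups did not overlap. Mrps21 had 15.3, 12.4 and 20.4 RPKM before and 24.0, 25.1 and 25.6 RPKM after, the widest spread among the unstimulated values of the abundant members after Mrps16 and Mrpl42 (limma adjusted p = 0.00934). Mrpl54, at 21.5, 19.9 and 20.3 RPKM before and 26.0, 24.1 and 27.2 RPKM after, stood behind Mrpl24 and Mrps16 alone in mean level before stimulation and rose 1.25-fold (limma adjusted p = 0.00381).

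**Figure D3:**
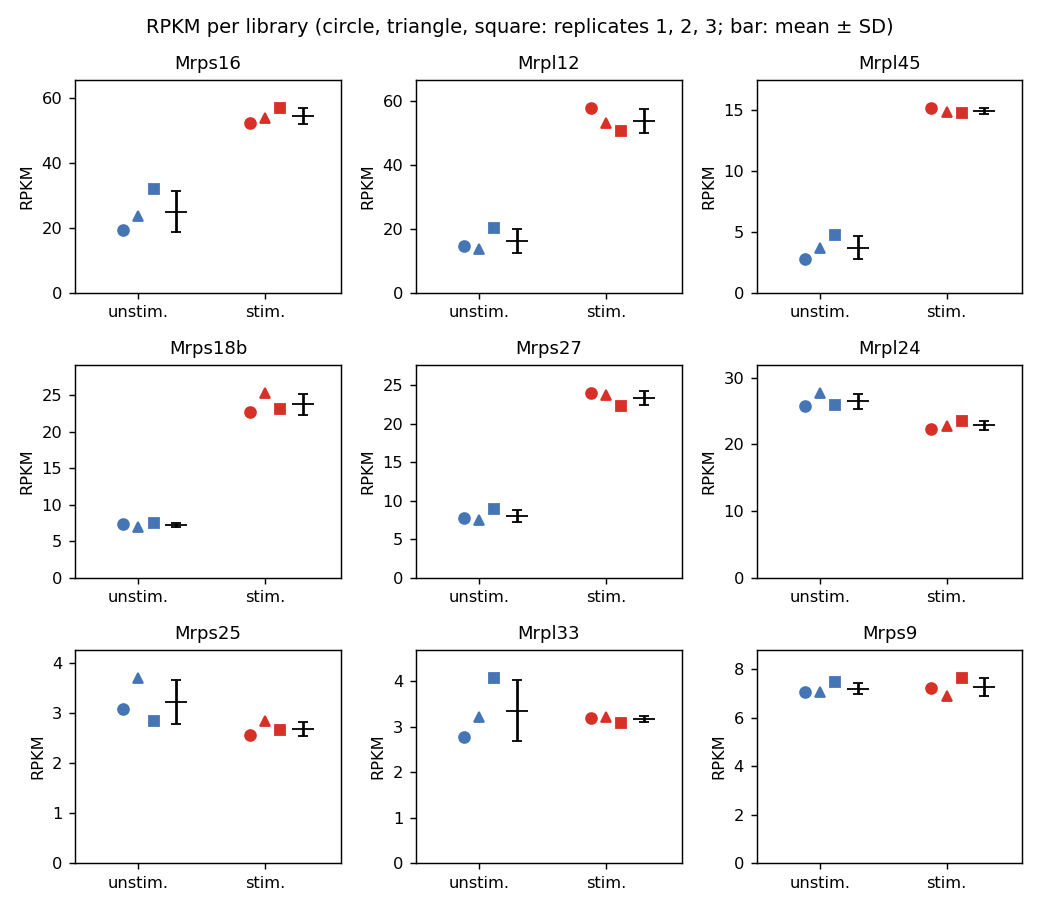
RPKM (y axes, each starting at 0) of 9 members in the 3 unstimulated (blue) and 3 stimulated (red) libraries (x axes); symbols mark replicates 1 to 3 and black bars the mean ± SD. The first 5 members have all red points above all blue ones, Mrpl24 and Mrps25 have them below, and Mrpl33 and Mrps9 overlap.

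The largest rise belonged to Mrpl45, a mitochondria-only protein near the exit of the peptide tunnel that contacts the inner membrane. It had 2.75, 3.65 and 4.69 RPKM before and 15.2, 14.8 and 14.7 RPKM after, a 4.04-fold difference of means (log2 difference 1.78 ± 0.15 (SE), limma adjusted p = 4.38e-05). Its gene lies at chr11:97315716-97329920 on the forward strand. Mrps18b had 7.31, 6.97 and 7.498 RPKM and then 22.8, 25.4 and 23.1 RPKM (1.58 ± 0.06 (SE), limma adjusted p = 2.97e-06). An unnamed gene model, Gm16279, covers 30.5% of its exon bases on the other strand. Mrps27 had 7.70, 7.52 and 8.93 RPKM and then 24.0, 23.7 and 22.2 RPKM. Mrps18b and Mrps27, whose promoter letters are printed above, were the strongest small-subunit rises by log2 difference, followed by Mrps6 and Mrps22. By the ratio of mean RPKM the order was Mrps18b (3.27), Mrps22 (2.902), Mrps27 (2.899), Mrps10 (2.68) and Mrps6 (2.59).

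Mrps6, of bacterial descent, had 8.56, 9.14 and 6.29 RPKM before and 22.2, 19.6 and 20.2 RPKM after; 19.9% of its exon bases overlap other genes of its strand, among them Slc5a3. Mrpl35 had 2.29, 2.47 and 3.24 RPKM and then 8.72, 7.95 and 7.92 RPKM. Mrpl2, which lies beside the peptidyl transferase centre, had 7.36, 6.65 and 9.95 RPKM and then 21.7, 20.9 and 21.0 RPKM. These 3 rose 2.59-fold to 3.08-fold with no overlap of the groups. Mrpl36, of bacterial descent, had 9.17, 9.44 and 13.8 RPKM before and 30.2, 28.2 and 24.4 RPKM after (2.55-fold). Ordered by role, the other members among the 3 largest log2 differences of their list were Mrpl57 (1.22) and Mrps22 (1.25), both mitochondria-only, and Mrps12 (0.99), which reaches the decoding centre.

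The 3 paralogs of bacterial S18 occupy different places and differed in rise. Mrps18b of the small subunit rose 3.27-fold, Mrps18c, the closest counterpart of the bacterial protein, 1.78-fold (2.90, 3.39 and 4.48 RPKM before, 6.98, 6.71 and 5.48 after), and Mrps18a of the large subunit 1.56-fold (5.01, 6.14 and 6.61 RPKM before, 8.75, 9.42 and 9.56 after). The ranges of all 3 were apart between groups, and the differences among the paralogs were not tested.

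Only 1 member was called lower. Mrpl24, a protein at the peptide exit tunnel (chr3:87919506-87923672, forward strand), had 25.7, 27.7 and 25.9 RPKM before and 22.2, 22.8 and 23.5 RPKM after (log2 difference -0.20 ± 0.06 (SE), limma adjusted p = 0.013). It was the most abundant member in the unstimulated libraries by mean, and the groups did not overlap. The fall was kept with quantile normalisation (-0.21) but not on other scales: with log2 values centred on the median gene the difference was 0.06, and on summed allelic read counts edgeR gave 0.435. It also lost the call without unstimulated replicate 2 (-0.17), stimulated replicate 1 (-0.18) or stimulated replicate 2 (-0.20). Its exons share 26.3% of their bases with Rrnad1 on the other strand, and whether counting used strand is not given in the sources used here.

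Mrps9, Mrpl33 and Mrps25 did not pass the test. Mrps9, whose bacterial counterpart touches the tRNA in the small subunit, had 7.08, 7.07 and 7.48 RPKM before and 7.25, 6.90 and 7.65 RPKM after. The groups overlapped fully (log2 difference 0.01 ± 0.07 (SE), limma adjusted p = 0.905). It was called higher with median centring (0.27), with quantile normalisation (0.24) and by edgeR (0.57) and DESeq2 (0.56) run on summed allelic counts. Mrpl33 had 2.77, 3.21 and 4.08 RPKM before and 3.19, 3.22 and 3.09 RPKM after (-0.05 ± 0.12 (SE), limma adjusted p = 0.701), and quantile normalisation gave 0.41. Mrps25 had 3.09, 3.70 and 2.85 RPKM before and 2.56, 2.84 and 2.65 RPKM after (-0.19 ± 0.10 (SE), limma adjusted p = 0.119), and without unstimulated replicate 3 it was called lower (-0.25). Its exons overlap those of Nr2c2 on the other strand over 69.8% of their bases, and on summed allelic read counts it was called higher by edgeR (0.84) and DESeq2 (0.83). Mrpl53 was listed at 0 in all 6 libraries, and 88.0% of its exon bases lie within another gene model of its strand, Gm42688. In all, 8 members share exon bases with a gene of the same strand and 28 with one of the other strand, 6 of these over more than 25% of their length.

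Genes that share a start region with a member did not all follow it. Of the 18 protein-coding neighbours that start within the 1000 bases before a member and point away from it, 6 were called higher (31.2% of all genes tested) and 5 lower (48.9% of all genes tested). The others were 3 not called and 4 not tested. Ncapd2, a condensin subunit 100 bases from Mrpl51, had a log2 difference of 2.62 against 0.74 for the member. Psma2, a proteasome subunit 75 bases from Mrpl32, had 1.39 against 0.92. On the other side, Klc4, 207 bases from Mrpl2, had -1.52 against 1.32, and Ppp1r10, 45 bases from Mrps18b, had -0.55 against 1.58. Members with such a neighbour had a median log2 difference of 0.878, and the other members 0.884.

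Among the other genes of mitochondrial translation, the 5 ribosomal subunits with other names were all called higher, led by Chchd1 (12.2, 14.1 and 18.7 RPKM before, 54.6, 54.7 and 50.2 after; log2 difference 1.78), Gadd45gip1 (1.14) and Dap3 (0.57). Of 13 tested translation factors, 7 were called higher and 1 lower, with a median of 0.30. Those with the largest differences were the elongation factors Tsfm (3.59, 3.52 and 4.31 RPKM before, 13.6, 13.3 and 11.6 after; 1.53), Tufm (1.24) and Gfm1 (1.10). Among 24 assembly and rRNA modification factors, 14 were higher and 6 lower (median 0.25), the largest difference being 1.00 for the GTPase Mtg1, followed by Mpv17l2 (0.79) and the helicase Ddx28 (0.72). Of 17 mitochondrial tRNA synthetases, 7 were higher and 3 lower (median 0.21), with Fars2 at -0.79 and Yars2 at 0.74. These splits moved toward rises with median centring: 11 and 0 for the translation factors, 17 and 1 for the assembly factors and 10 and 3 for the synthetases.

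**Figure D4:**
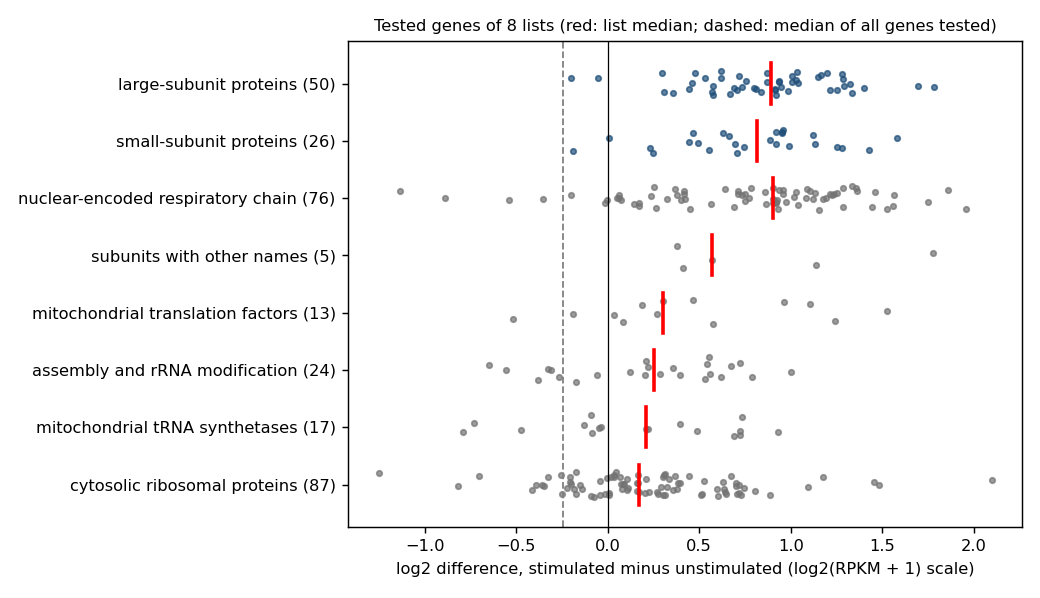
Log2 difference between stimulated and unstimulated libraries (x axis, log2(RPKM + 1) scale) of each tested gene in 8 lists (y axis, number tested in brackets); red bars are list medians and the dashed line is the median of all genes tested, -0.24. The medians of the large-subunit (0.89) and small-subunit (0.81) proteins lie next to that of the respiratory chain (0.90) and above those of the other 5 lists, which run from 0.17 to 0.57.

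Of 13 genes of mitochondrial transcription and mRNA stability, 5 were called higher and 5 lower. This split depends on scaling: it was 6 and 1 with median centring, 8 and 1 with quantile normalisation and 5 and 1 by edgeR on summed allelic counts. Slirp, a partner of Lrpprc in stabilising mitochondrial messages, had a difference of 1.38 and the elongation factor Tefm 0.87, while Polg2, the accessory subunit of the mitochondrial DNA polymerase, had 18.1, 16.7 and 13.2 RPKM before and 1.88, 1.69 and 1.80 after (-2.60). Of 9 tested regulators of mitochondrial biogenesis, 4 were higher and 3 lower, with 5 and 1 after median centring and 6 and 1 by edgeR. Myc had a difference of 1.82, the coactivator Pprc1 0.84 and the coactivator Ppargc1b -0.99. For the factors whose letters were searched, Nrf1 itself was called lower on the reported scale (6.28, 6.37 and 6.65 RPKM before, 5.09, 4.80 and 4.83 after; -0.33). It was 1 of the 3 regulators called lower, a number that fell to 1 after median centring and by edgeR. Gabpa, an ETS factor, was higher (0.31), while Yy1 was at -0.05 and not called.

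The mitochondrially encoded genes, whose messages this ribosome translates, are given next. Of 10 tested, 0 were called higher (0 also at an unadjusted p under 0.05; no other tool was run on them) and 2 lower by limma: the small ribosomal RNA mt-Rnr1 (205, 361 and 342 RPKM before, 180, 86.8 and 123 after; log2 difference -1.23) and mt-Cytb (-0.55). The library kit removes ribosomal RNA, so the mt-Rnr1 value is what remained after depletion. mt-Co1 had 2854, 3902 and 4042 RPKM before and 3314, 3700 and 3769 after, overlapping groups. Unstimulated replicate 1 was the lowest of its group for mt-Nd1, mt-Nd2, mt-Nd4 and mt-Nd5, with mt-Nd2 at 75.1 RPKM against 351 and 362. Without that library 6 of the 10 were called lower, with a median log2 difference of -1.06 against -0.63, and with no filter on low values 1 of 14 was called higher and 1 lower.

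Cytosolic ribosomal proteins build the ribosomes outside mitochondria. Of 87 tested, 40 were called higher and 8 lower, with a median log2 difference of 0.17. This split depends on scaling: it was 60 and 3 with median centring and 24 and 27, with a median of -0.04, after quantile normalisation. Rps27l (2.10), Rps2 (1.49) and Rpl13a (1.46) had the largest differences. Cytosolic ribosomal protein genes that have processed pseudogenes can share reads with these copies. Per 100 RPKM of cytosolic ribosomal proteins, the members summed to 2.01, 1.96 and 2.54 RPKM before and 3.83, 3.74 and 3.69 after. Nuclear-encoded subunits of the respiratory chain, most of which assemble with the products of the mitochondrial ribosome, had 59 of 76 called higher and 4 lower and a median of 0.90. They were led by Uqcrq (1.96), Atp5b (1.86) and Cox5a (1.75).

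Reads that carry a sequence difference between the parents were also counted for each allele, which gives another measure of the same libraries. Of the 9.61 M to 20.2 M allelic reads per library, 17420 to 77110 fell on the members. The cast share of the members' reads was 49.1% to 50.7%, and of all autosomal reads 49.3% to 49.4%. Most members were near balance: the mean cast share lay between 40% and 60% in both groups for 52 members. Mrpl22 had at most 1 allelic read in any library despite 8.53 to 25.2 RPKM, so it, Mrpl53 and Mrpl2 were not tested for alleles. Intervals below are 95% exact Clopper-Pearson intervals and cover counting error only.

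Alleles were unequal in a part of the members. In unstimulated cells 22 of 75 tested members had unequal alleles (edgeR, adjusted p under 0.05 over 12834 genes), with cast above mus in 10 (11.9% of all genes tested) and below in 12 (20.6%). With TMM factors for each library and allele the same contrast gave 15 and 6. In stimulated cells 31 members were unequal, with cast above in 13 (15.1% of all genes tested) and below in 18 (22.5%). Unequal in both groups were 16 members, 15 of them in the same direction, the exception being Mrps15. The share of all genes tested that was unequal in both groups was not counted, so these numbers have no baseline. In such a share, mapping that favours the allele of the reference genome and unequal expression of the alleles cannot be told apart.

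Mrps33, a mitochondria-only small-subunit protein, had the highest mean cast share of the 68 members with at least 30 reads in each library. Before stimulation cast gave 84.3%, 94.3% and 78.5% of its reads (102 to 163 reads each), and after it 86.3%, 86.3% and 80.5% (430 to 502 reads). No library came near equal parts, and the 95% interval of the lowest was 71.4% to 84.6%. Mrps18b followed with a mean over the 6 libraries of 68.3%, then Mrps10 (67.5%), Mrps23 (67.1%), Mrpl20 (63.6%) and Mrpl49 (60.4%). The order of these means differed between groups: in unstimulated cells Mrps10 (74.45%) and Mrps23 (70.3%) stood above Mrps18b (65.75%), and in stimulated cells Mrps18b (70.8%) stood above Mrps10 (60.5%). At the other end, Mrpl27, which reaches the peptidyl transferase centre, had a mean cast share of 33.8%, from 25.5% (47 reads, interval 13.9% to 40.4%) to 40.5% (341 reads). Mrps12 had 37.3%, Mrpl42 40.03%, Mrpl1 40.8%, Mrps9 40.8% and Mrpl33 41.2%.

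A change of the cast share with stimulation was called for 4 members, up in 1 (5.61% of all genes tested) and down in 3 (4.63%), which is 1.33% and 4.0% of the 75 members tested. An unadjusted p under 0.05 was found for 10 members (13.3%), against 22.9% of all genes tested. Mrps15, an RNA-binding protein of the small subunit, moved from cast shares of 40.6%, 47.2% and 43.3% (248 to 289 reads) to 58.2%, 56.5% and 55.6% (643 to 927 reads). The groups did not overlap, with mus above cast in each unstimulated library and cast above mus in each stimulated one (edgeR, change of the log2 ratio of cast to mus 0.76, adjusted p = 0.0115). Relative to all allelic reads of the library its mus allele rose 1.41-fold and its cast allele 2.36-fold. The call of a change was kept in each fit that left out a library and was lost with DESeq2. The inequality within each group was less firm: that of the unstimulated cells (edgeR adjusted p = 0.0454) was lost in 9 alternatives, among them DESeq2, the replicate block and 5 left-out libraries, and that of the stimulated cells in 4, DESeq2 and each left-out stimulated library.

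Mrps10, also of the small subunit, moved the other way, from 81.5%, 75% and 66.8% (212 to 260 reads) to 62.8%, 56.5% and 62.3% (999 to 1328 reads). Its mus allele rose 4.74-fold and its cast allele 2.47-fold (change -0.94, edgeR adjusted p = 0.0171). The call was lost without unstimulated replicate 1 (-0.66), unstimulated replicate 2 (-0.93) or stimulated replicate 2 (-0.82). Mrps5, which lies near the messenger RNA entry of the small subunit, went from 60.8%, 62.3% and 57.8% (477 to 780 reads) to 50.5%, 53.6% and 44.6% (1316 to 1603 reads; change -0.62, edgeR adjusted p = 0.0158). Without unstimulated replicate 1 (-0.61), unstimulated replicate 2 (-0.57) or stimulated replicate 3 (-0.48) it was not called. The changes of Mrps10 and Mrps5 were both called with DESeq2.

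Mrpl18 went from 63.7%, 65.3% and 64.6% (147 to 204 reads) to 52.0%, 53.6% and 55.6% (616 to 789 reads). Its unstimulated shares were the tightest of the 4, yet its call (change -0.65, edgeR adjusted p = 0.0406) was lost without any 1 of the 6 libraries, with changes of -0.595 to -0.702, and with DESeq2 (-0.65). The next in order of p were Mrpl9 (change -0.36, edgeR adjusted p = 0.116), Mrpl49 (0.52, edgeR adjusted p = 0.134) and Mrpl39 (0.59, edgeR adjusted p = 0.154). With the replicate number as a block Mrpl39 was called as well (edgeR adjusted p = 0.0403), which made 5 members.

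**Figure D5:**
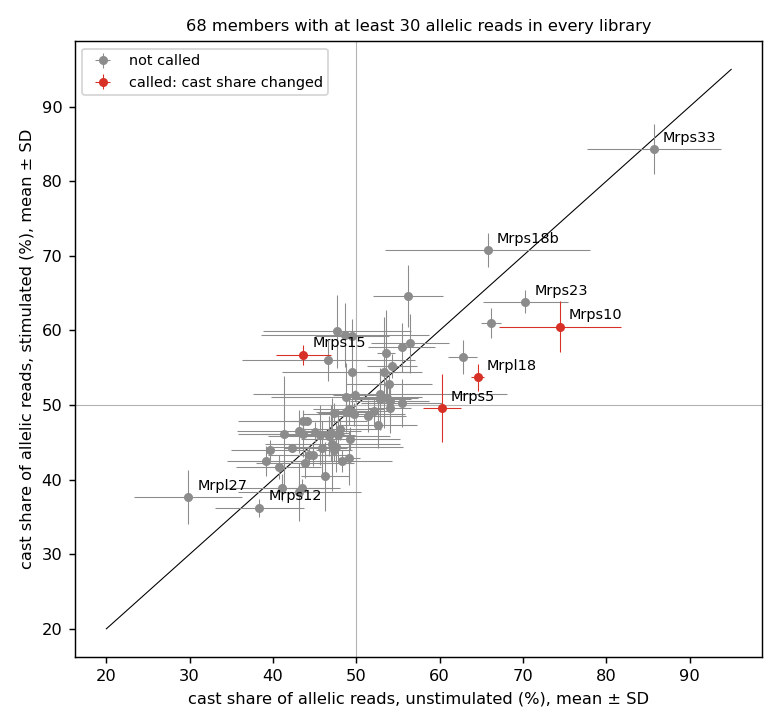
Mean cast share of allelic reads (percent, ± SD over 3 libraries) in unstimulated (x axis) and stimulated (y axis) cells for the 68 members whose allelic reads numbered at least 30 in each library; the diagonal marks equal shares. Red points are the 4 members with a called change: Mrps15 lies above the diagonal and Mrps10, Mrps5 and Mrpl18 below it, while Mrps33 sits near the diagonal at 85.7% and 84.3%.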

How the data were processed

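RPKM values and allelic read counts are as deposited by the authors: per the file headers, 1 table holds RPKM of both alleles together and the other holds counts of reads assigned to the mus or cast allele. STAR 2.7.1a, featureCounts and mm10 are named in the submitters' processing notes; how alleles were assigned, which gene lengths and read totals RPKM used, and the strand setting are points not given in the sources used here. The members and lists were chosen with earlier results of these data known. Of the 49671 gene identifiers, 49326 matched GENCODE M21.

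RPKM was compared with limma 3.58.1 (trend, two-sided, R 4.3.3) on log2(RPKM + 1). Genes entered where 3 or more libraries reached an RPKM of 1, with p-values adjusted by Benjamini-Hochberg over all genes tested. The pseudocount understates changes of low genes. Cast shares were tested with edgeR 4.0.16 (quasi-likelihood, 1 term per library, allele by group) on genes with at least 30 allelic reads per group. DESeq2 1.42.0, other scalings, filters and pseudocounts and left-out libraries were alternatives. Tests were first tried on simulated data. Named with values were the 12 members of highest mean RPKM, the 10 largest rises, called falls, members not called, the members with a called change of cast share and the 3 next, the 6 highest and 6 lowest cast shares, the Mrps18 paralogs, and from each list the 3 largest called differences, of which 1 is not reported here.

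Replicate numbers are shared between groups, and the labels do not say that equal numbers are 1 mouse. Over 9043 genes, log2 allele ratios centred within groups correlated at 0.28, 0.30 and 0.18 between libraries of equal number. The edgeR p-values given above for changes of cast share come from a fit without this pairing, except where a block is named. With the replicate number as a block, the edgeR adjusted p of the change was 0.000689 for Mrps10 and 0.000868 for Mrps5. It was 0.00683 for Mrps15 and 0.0491 for Mrpl18.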

Additional observations from a re-analysis of the deposited data

Results flagged for a closer look

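The log2 ratio of cast to mus differed between unstimulated and stimulated cells for 4 members by the edgeR interaction test. Its change was 0.758 for Mrps15, -0.624 for Mrps5, -0.941 for Mrps10 and -0.645 for Mrpl18. All 4 have groups of shares that do not overlap, but they were picked by a test on these same shares, so this is no separate support. The call of Mrps15 was kept with any library left out, while Mrps5, Mrps10 and Mrpl18 each lost theirs in some of these fits. With DESeq2 the order differed: Mrps10 and Mrps5 were called, and Mrps15 and Mrpl18 were not.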

How the results depend on the processing

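With median centring, quantile normalisation, edgeR on summed allelic counts and DESeq2 on summed allelic counts, the median log2 difference of the members was 1.144, 1.116, 1.38 and 1.359. In the same order, members called higher with a log2 difference of at least 1 numbered 46, 45, 55 and 54, against 25 as reported. The median of all genes tested moved from -0.243 to 0.018 with median centring and 0.037 with quantile normalisation. Members called lower numbered 0 with median centring, edgeR and DESeq2 and 0 to 2 with a library left out. Mrpl24 changed sign with median centring (0.059), edgeR (0.435) and DESeq2 (0.421), Mrps25 with edgeR (0.844) and DESeq2 (0.829), both calls, and Mrpl33 with quantile normalisation (0.409). Median centring shifts all genes by 1 amount, so the smaller differences of Mrps25 (-0.189) and Mrpl33 (-0.052) also turned positive, without a call. Without unstimulated replicate 3, Mrpl33 was at 0.065 and not called. Mrpl2 (0.717 and 0.742) and Mrps21 (0.241 and 0.228) were not called by edgeR and DESeq2 on allelic counts, of which Mrpl2 had 91 in all. Members with a changed cast share numbered 2 with DESeq2 and 1 to 4 with a library left out, and members with unequal unstimulated alleles numbered 14 with DESeq2. The cause was not tested. In the 100 bases around the start, E-box letters were in 2.7% of the members' windows (4.5% of those of tested genes) and GC box letters in 28.0% (41.1%). CCAAT letters were in 18.7% (14.5%) and TATA letters in 0.0% (2.5%). The shares of tested genes were also lower there than in the whole windows.

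With the replicate number as a block, 72 members were called higher and 5 had a changed cast share, which adds Mrpl39; no other count moved by over 1.5 times. RPKM values centred within groups correlated at 0.00603, 0.0611 and 0.0908 between libraries of equal number, so pairing is not shown for levels. Allelic depth limits the shares of the 10 members with under 30 reads in some library.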
